A study of Sus scrofa with 37 samples.

Results

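The change of transcript abundance between 28 and 63 days post natum (dpn) was followed in peripheral blood mononuclear cells (PBMC) of pigs fed a diet with high phosphorus (P), the H samples. The comparison holds every array labelled high-intake, 7 arrays at 63 dpn and 7 at 28 dpn of the same 7 pigs, paired by the pig number in the sample names, which is 14 of the 37 arrays of the study. German Landrace piglets were weaned at 28 dpn and from then on ate cereal and soybean feed in which digestible P was set at 0.33% (L pigs), 0.51% (M pigs) or 0.74% (H pigs), with no phytase in any of them. Blood was taken at weaning, when the diets had not begun, and again at 63 dpn, and the RNA of PBMC was hybridised to a porcine expression array. The 7 H pigs were 4 females and 3 males, and each pig had the same sex label at both ages. Because the H pigs also grew older by the second sample, the diet and the age cannot be told apart within this comparison. The L pigs (6 pairs) and M pigs (5 pairs) served for the spread and for the test of whether the change differed between diets. Their levels and changes were also set beside those of the H pigs. The comparison at 28 dpn held 6 M arrays, as M pig 8 had no array at 63 dpn.

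PBMC are the lymphocytes and monocytes that a density gradient separates from red cells and granulocytes of the blood. Phosphate in the blood is held in balance by bone, kidney and gut under hormones such as parathyroid hormone, vitamin D and FGF23. Monocytes share their origin with osteoclasts, the cells that resorb bone and release its mineral, and the RANK receptor, SYK and NFATC1 belong to the pathway by which such precursors become osteoclasts. After weaning, piglets meet new antigens while maternal antibodies wane.

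Between the ages 2935 of the 28086 probe sets tested were called in the H pigs, which is 10.5% of them, with 2004 higher (7.14%) and 931 lower (3.31%) at 63 dpn. A probe set is the group of probes for 1 transcript, values are on the log2 scale, and called means that both P and the q value (the P value of limma adjusted by Storey's method) were at most 0.05. The median change was 0.53 on the log2 scale among the higher and -0.49 among the lower probe sets, and -0.02 over all those tested. Changes of at least 1 were called for 61 probe sets upward and 26 downward. The change had 1 sign in all 7 pigs for 1411 probe sets upward (5.02%) and 1053 downward (3.75%). The 7 values at 63 dpn lay wholly above those at 28 dpn for 250 probe sets (0.89%) and wholly below for 81 (0.288%). Of the called probe sets 68.3% were higher, and after centring the arrays on their medians 81.8% of 2806. The array medians lay between 5.31 and 5.41 at 28 dpn and between 5.25 and 5.36 at 63 dpn.

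The pigs did not all change equally far. The leading component of a principal component analysis of all arrays (13.8% of variance) had the H samples from -6.29 to 37.7 (median 17.3) at 28 dpn and from -66.7 to 11.5 (median -18.8) at 63 dpn. The 63 dpn arrays of pigs 12 and 11 lay lowest, at -66.7 and -44.9, and without these pigs 964 probe sets were called. The count was 585 without pig 9, 1241 without pig 3, 1450 without pig 11 and 1749 without pig 15. It was 462 when only the 14 H arrays entered the fit and the spread came from 7 pairs in place of 18. The cause of that drop was not tested.

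**Figure D1:**
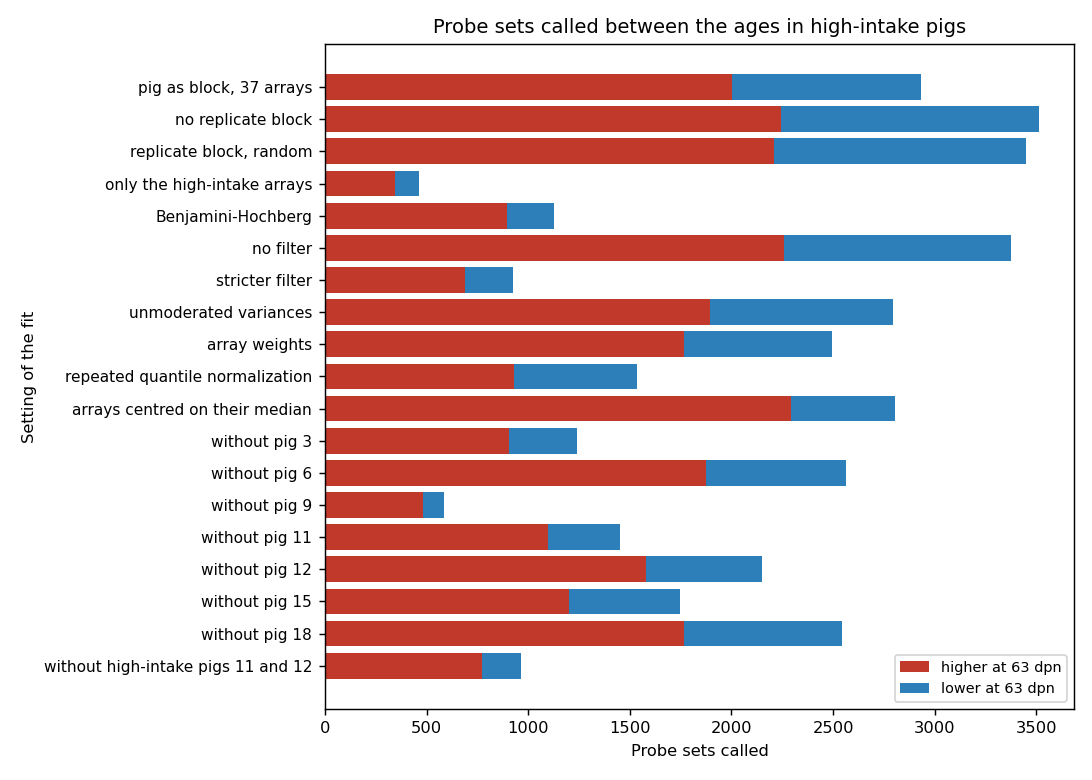
Number of probe sets called between 28 and 63 dpn in H pigs (x axis) under each setting of the fit (y axis), split into higher (red) and lower (blue) at 63 dpn. Higher probe sets outnumber lower ones under every setting shown, and the total runs from 462 with only the H arrays to 3512 without the pig as a block.

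Among the largest increases were genes of receptors on monocytes and lymphocytes. Values of the pigs are given as lowest, median and highest. FCGR2B, the inhibitory receptor for immunoglobulin G on B cells and myeloid cells, lay at 4.19, 4.92 and 5.90 at 28 dpn and at 5.56, 6.81 and 7.45 at 63 dpn. It was higher at 63 dpn in 7 of 7 pigs although the ages overlapped, and rose by 1.73 (SE 0.36, q = 0.00876). Of the 5 probe sets of FCGR2B tested, only this one was called, and without pigs 11 and 12 it was not (1.24, q = 0.0586). FZD4, a receptor of Wnt ligands, lay at 3.41, 4.04 and 5.19 at 28 dpn and at 5.25, 5.51 and 6.26 at 63 dpn. The ages did not overlap, and the rise was 1.47 (SE 0.31, q = 0.00876), with 4 of its 7 probe sets called higher.

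KLRK1, which encodes the activating receptor NKG2D of NK and cytotoxic T cells, lay at 3.32, 4.67 and 7.66 at 28 dpn and at 5.29, 6.65 and 7.25 at 63 dpn. It rose by 1.60 (SE 0.34, q = 0.00917) in 6 of 7 pigs, and the high value at 28 dpn belonged to pig 18, the only pig in which it went the other way (-0.41). CX3CR1, the receptor of fractalkine, had a change of 1.68 (SE 0.42, q = 0.0166) in 6 of 7 pigs, but without pig 9 its q was 0.0559 with a change of 1.62. CALCRL, the receptor-like protein of the calcitonin family, rose by 1.47 (SE 0.27, q = 0.00572), and the scaffold protein AHNAK by 1.40 (SE 0.27, q = 0.00769). For both, pig 12 was the only pig without an increase. VCL, the adhesion protein vinculin, lay at 5.05, 5.69 and 6.50 at 28 dpn and at 6.52, 6.87 and 7.63 at 63 dpn. It was higher in 7 of 7 pigs with no overlap and rose by 1.16 (SE 0.25, q = 0.0108), on 1 of its 4 probe sets.

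The increase of largest mean among all called probe sets rested on a pair of pigs. TGM3, a transglutaminase, lay at 5.57, 6.12 and 7.13 at 28 dpn and at 5.73, 6.99 and 12.40 at 63 dpn. The mean change was 1.77 (SE 0.52, q = 0.0286), but the single changes were 6.37 in pig 12, 3.52 in pig 11 and at most 0.98 in the other pigs. Without pig 9, 11 or 12 it was not called (q = 0.0576 to 0.0748), and without both pigs 11 and 12 its change was 0.49. Epiregulin (EREG), a ligand of the EGF receptor, rose by 1.20 (SE 0.27, q = 0.0121) in 7 of 7 pigs with no overlap, from a median of 3.53 to one of 4.53, with pig 12 at 3.31 and a change of 0.76 without pigs 11 and 12, when it was not called (q = 0.0652). RNF128, a ubiquitin ligase that restrains T cell activation, and VNN3, of the vanin family, had changes of 1.30 (q = 0.0266) and 1.21 (q = 0.0137), each in 6 of 7 pigs. RNF128 lost its call without pig 9, 11, 12 or 15 (q = 0.0518 to 0.0729).

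**Figure D2:**
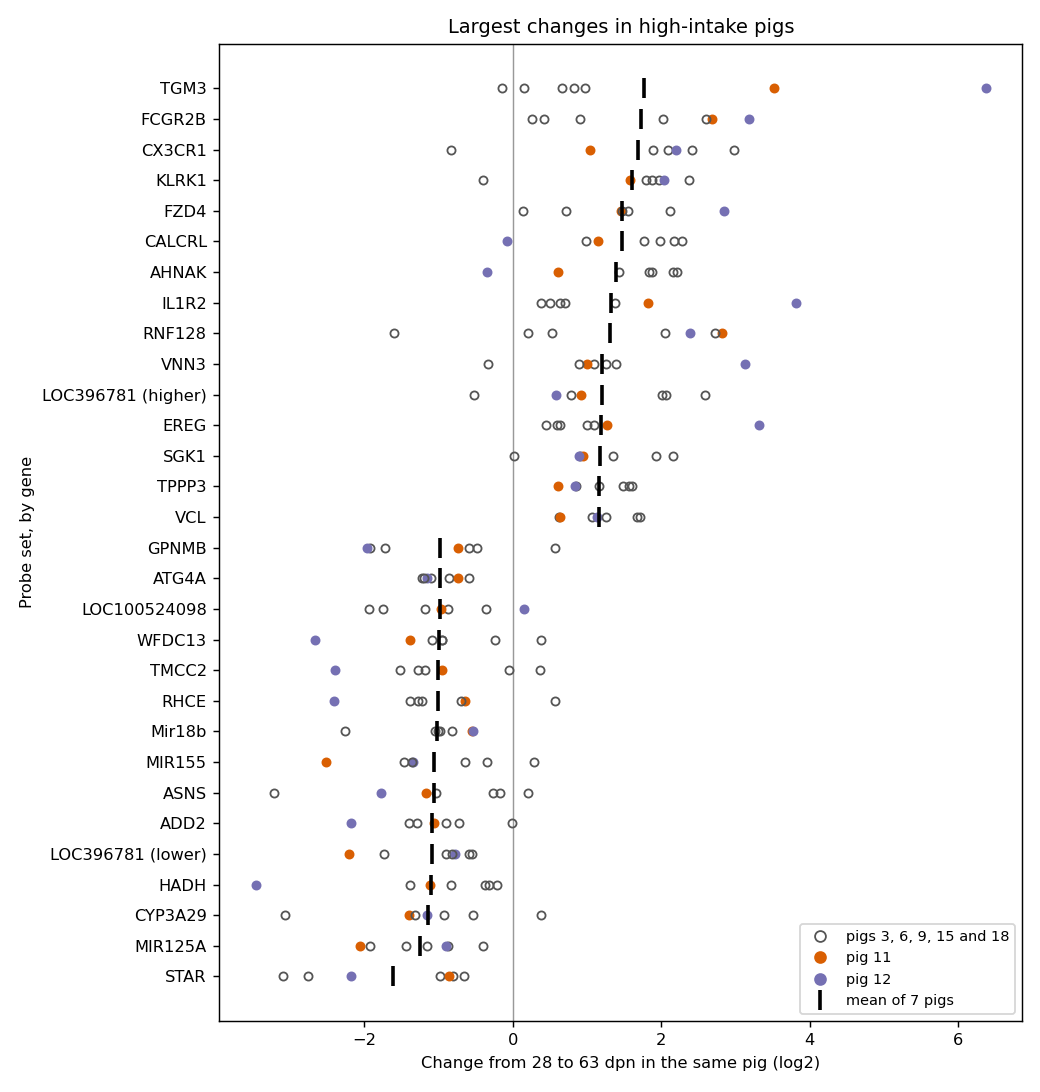
Change from 28 to 63 dpn (x axis, log2) of the 15 largest called increases and decreases by gene (y axis), 1 point for each of the 7 H pigs and a bar for their mean, with pig 11 in orange. Each row has at least 6 of 7 points on 1 side of 0, and pig 12 (violet) stands apart for TGM3 at 6.37 and IL1R2 at 3.81.

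Among the decreases were genes of red cells, of metabolism and of microRNAs. STAR, which passes cholesterol into mitochondria for steroid synthesis, lay at 4.55, 5.80 and 6.45 at 28 dpn and at 2.38, 4.94 and 5.004 at 63 dpn. It fell in 7 of 7 pigs, by 1.62 on the log2 scale (SE 0.33, q = 0.00876), most in pigs 9, 18 and 12. Of its 7 probe sets 2 were called lower, and the one of highest mean had a change of -0.36 (q = 0.0622). ATG4A, a protease of autophagy, lay at 10.99, 11.72 and 12.10 at 28 dpn and at 10.25, 10.64 and 10.94 at 63 dpn. It was lower in 7 of 7 pigs with no overlap, with a change of -0.98 (SE 0.21, q = 0.0094), and 5 of its 8 probe sets were called. HADH, a dehydrogenase of fatty acid oxidation, was lower in 7 of 7 pigs with a change of -1.10 (q = 0.0266), of which pig 12 gave -3.46, and it was not called without pig 9, 11 or 12 (q = 0.0508 to 0.0781). CYP3A29, a cytochrome P450 of the pig, had a change of -1.15 (q = 0.0135) and ASNS, the asparagine synthetase, one of -1.06 (q = 0.0392), each in 6 of 7 pigs. For CYP3A29 1 of its 4 probe sets was called. The call of ASNS was lost without pig 3, 6, 9, 11 or 12 (q = 0.0661 to 0.105).

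The gene lists described next hold 744 entries in 33 lists, of which 500 entries, or 486 different genes, passed the filter on low and invariant values. Of these 486 genes 87 (17.9%) were called higher and 12 (2.47%) lower, beside 7.14% and 3.31% of all probe sets, and their median change was 0.18. Among the 14860 probe sets with a gene symbol, microRNAs and the immunoglobulin heavy chain locus left out, the shares were 9.78% and 3.11%. The lists were chosen with earlier results of these data known, and each gene is its probe set of highest mean. The shares are therefore not like for like. The defining markers of PBMC were measured in the H samples, with CD3E of T cells at 10.25 ± 0.37 at 28 dpn and 10.51 ± 0.30 at 63 dpn (SD, n = 7), MS4A1 of B cells at 11.05 ± 0.34 and 11.61 ± 0.32, and CD14 of monocytes at 8.27 ± 0.21 and 9.12 ± 0.999. The ages did not overlap for 20 of the 486 list genes, beside 1.18% of all probe sets.

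Genes of monocytes were higher at 63 dpn. Of 16 genes tested 8 were called, all higher, the median change was 0.64, and all 16 changes were positive. VCAN, the proteoglycan versican of classical monocytes, lay at 8.68, 9.41 and 9.64 at 28 dpn and at 9.72, 10.13 and 10.73 at 63 dpn. It was higher in 7 of 7 pigs with no overlap and rose by 0.82 (SE 0.19, q = 0.0124). FGL2, a fibrinogen-like protein of monocytes and T cells, lay at 8.73, 9.65 and 9.99 at 28 dpn and at 9.92, 10.27 and 10.77 at 63 dpn, and rose by 0.74 (SE 0.15, q = 0.00876) in 7 of 7 pigs. CCR2, the chemokine receptor by which monocytes leave the marrow, went from a median of 9.55 to one of 10.22 with no overlap and rose by 0.73 (q = 0.0247). CD163, the scavenger receptor for haemoglobin, and CD14, the coreceptor for lipopolysaccharide, had changes of 0.97 (q = 0.0197) and 0.85 (q = 0.0317), each in 6 of 7 pigs. The other called genes were TYROBP, AIF1 and LYZ, whereas ITGAM, MSR1 and CD36 were not called.

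The mean change of the monocyte list was 0.56 ± 0.52 (SD, n = 7 pigs), between -0.07 in pig 6 and 1.46 in pig 12. In bulk RNA a larger share of monocytes and more of these transcripts per monocyte cannot be told apart. Without pigs 11 and 12 the median change was 0.45 with 2 genes called, without pig 9 also 2, with only the H arrays 3 and after repeated quantile normalization 4. CCR2 was not called without pig 3 or 9 (q = 0.0606 to 0.0927), CD163 not without pig 9 (q = 0.0628) and CD14 not without pig 3, 9, 11 or 12 (q = 0.0546 to 0.0934). VCAN and FGL2 were called with each pig left out in turn.

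The interleukin-1 system was higher as well, with 5 of 10 genes called higher, a median change of 0.68 and all 10 changes positive. IL1R1, the signaling receptor, lay at 4.74, 4.99 and 5.53 at 28 dpn and at 5.40, 5.89 and 6.55 at 63 dpn. It was higher in 7 of 7 pigs and rose by 0.89 (SE 0.16, q = 0.00572), on 1 of its 2 probe sets. IL1R2, the decoy receptor, lay at 5.33, 5.77 and 6.16 at 28 dpn and at 5.84, 6.48 and 9.90 at 63 dpn, and rose by 1.32 (SE 0.28, q = 0.0089) in 7 of 7 pigs. The highest value was that of pig 12, and without pigs 11 and 12 the change was 0.72. IL1B, the cytokine itself, rose by 0.67 (SE 0.17, q = 0.017), and NLRP3, the sensor of the inflammasome that processes it, by 0.69 (SE 0.17, q = 0.017). IL18R1, the receptor of interleukin-18, rose by 0.58 (q = 0.0265). IL1B lost its call without pig 9 (q = 0.0605) and IL18R1 without pig 11 or 12 (q = 0.0628 to 0.0632). With only the H arrays IL1R1 alone of the list was called (q = 0.0561 to 0.0795 for the other 4 genes named here), and without pigs 11 and 12 IL1R1 and IL1R2. The list changed by 2.19 in pig 12 and 1.14 in pig 11, beside -0.39 to 0.70 in the others. Its SD over pigs was 0.81 in H, 0.31 in L and 0.26 in M pigs. The SE and q of the main fit rest on the spread of all diets pooled, so for this list they understate the spread among H pigs.

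Of 20 Toll-like receptors, adaptors and IRAK kinases 7 were called higher and 0 lower, with a median of 0.45 and a positive mean change in 7 of 7 pigs. TLR2, which senses bacterial lipoproteins, lay at 8.11, 8.38 and 8.43 at 28 dpn and at 8.32, 8.90 and 10.77 at 63 dpn. It rose by 0.80 (SE 0.20, q = 0.0164) in 6 of 7 pigs, with the highest value again in pig 12. Its partner TLR6 rose by 0.55 (q = 0.02), TLR8, a receptor for single-stranded RNA, by 0.60 (q = 0.0257) and the kinase IRAK4 by 0.47 (q = 0.0233). TAB3, an adaptor of the kinase TAK1, rose by 0.65 (SE 0.15, q = 0.0116) in 7 of 7 pigs with no overlap. With only the H arrays 1 gene of this list was called, after repeated quantile normalization 2. Without pig 9 the called genes were 2, and TLR6, TLR8 and IRAK4 were among those lost (q = 0.0507 to 0.0692 over all their losses). TANK, an adaptor of NF-κB signaling, lay at 6.23, 7.04 and 7.24 at 28 dpn and at 7.25, 7.62 and 8.73 at 63 dpn, wholly above. It rose by 0.85 (SE 0.17, q = 0.00767), and of 14 NF-κB genes it and TBK1 were called, the latter not without pig 3, 9, 11, 12, 15 or 18 (q = 0.068 to 0.122).

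Among 19 genes of MAP kinase cascades 7 were called higher and 0 lower, with a median of 0.31 and a positive mean in every pig. MAP3K2, a MAP kinase kinase kinase, lay at 7.65, 7.77 and 7.98 at 28 dpn and at 8.24, 8.48 and 8.79 at 63 dpn. The ages did not overlap, the change was 0.66 (SE 0.12, q = 0.00554), and the single pigs lay close together, between 0.54 and 0.83. All 4 probe sets of MAP3K2 were called higher. MAPKAPK3, a kinase downstream of p38, rose by 0.59 (SE 0.14, q = 0.0132) and was not called without pig 9 (q = 0.0553), and SOS1, an exchange factor of RAS, rose by 0.57 (q = 0.0139) in 6 of 7 pigs. The list had 3 called genes without pig 9, without pigs 11 and 12 and after repeated quantile normalization, and 1 with only the H arrays, which was MAP3K2.

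Glucocorticoid-induced genes were in part higher, with 6 of 13 called higher, 0 lower and a median of 0.30. SGK1, a kinase that glucocorticoids induce and that acts on ion and phosphate transporters, lay at 7.64, 9.05 and 9.37 at 28 dpn and at 9.08, 9.94 and 10.27 at 63 dpn. It rose by 1.17 (SE 0.20, q = 0.00438) in 7 of 7 pigs and by 1.03 (q = 0.00554) on its other probe set. FKBP5, the cochaperone of the receptor, lay at 7.99, 8.17 and 8.60 at 28 dpn and at 8.39, 8.94 and 9.31 at 63 dpn. It rose by 0.68 (SE 0.13, q = 0.00651), on 1 of its 2 probe sets. ANXA1, the anti-inflammatory annexin, went from a median of 9.27 to one of 9.86 with no overlap and rose by 0.78 (SE 0.16, q = 0.00806). DUSP1, a phosphatase of MAP kinases, rose by 0.77 (q = 0.0112), with its highest value in pig 12. The calls of SGK1, FKBP5 and ANXA1 held with each pig left out and with only the H arrays, and the list kept 4 called genes without pigs 11 and 12.

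Of 9 clock genes 4 were called higher, namely NR1D2, NFIL3, RORA and BHLHE40. NR1D2, a nuclear receptor of the clock, rose by 0.82 (SE 0.19, q = 0.0116) in 7 of 7 pigs, from a median of 5.80 to one of 6.68. RORA lost its call without pig 3, 6, 9, 11 or 15 (q = 0.0536 to 0.0723) and BHLHE40 without pig 3, 9 or 12 (q = 0.0559 to 0.106). The labels used here give no hour of blood sampling, so its part in these changes was not tested.

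**Figure D3:**
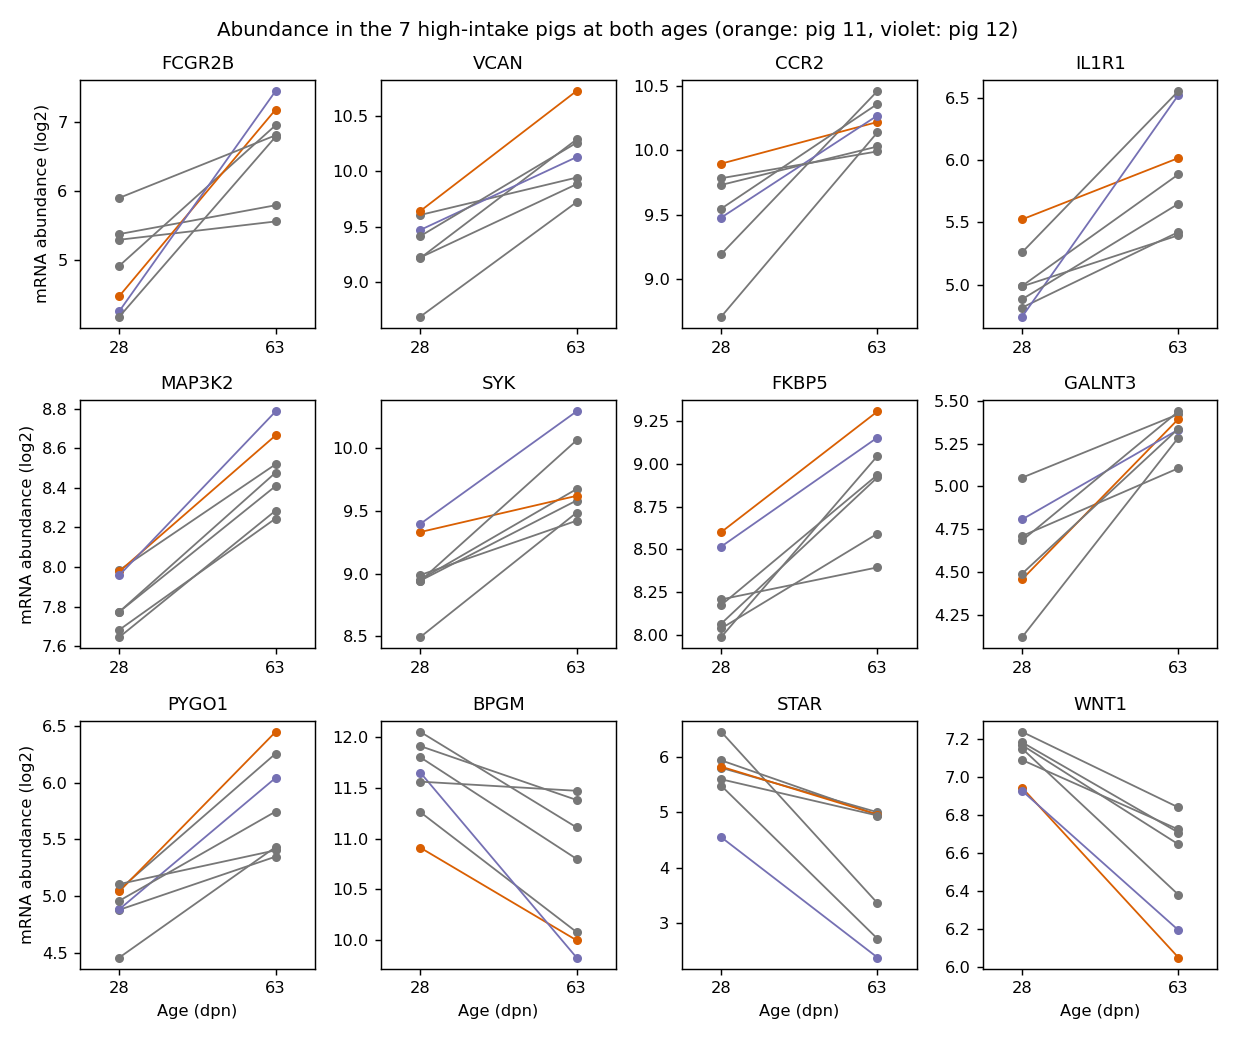
Abundance (y axis, log2) of 12 called genes at 28 and 63 dpn (x axis), 1 line for each H pig. All 7 lines go up for the genes from FCGR2B to PYGO1 and all 7 go down for BPGM, STAR and WNT1.

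Some genes of osteoclast formation and of the lysosome were higher. Of 16 genes of the RANK pathway 5 were called higher and 0 lower, with a median of 0.21. SYK, the kinase that passes on immunoreceptor signals, lay at 8.49, 8.95 and 9.39 at 28 dpn and at 9.42, 9.62 and 10.29 at 63 dpn. It was higher in 7 of 7 pigs with no overlap, by 0.73 (SE 0.16, q = 0.0111), on 2 of its 3 probe sets. NFATC1, the master transcription factor of osteoclasts, went from a median of 7.45 to one of 8.05 with no overlap and rose by 0.58 (q = 0.0231). RANK itself (TNFRSF11A) rose by 0.56 (q = 0.0234) in 6 of 7 pigs, and the protease cathepsin K (CTSK) by 0.61 (q = 0.0469). Of these, SYK alone kept its call with each pig left out, while NFATC1 and TNFRSF11A lost theirs without pig 3 or 9 (q = 0.0546 to 0.0907) and CTSK without pig 3, 9, 11, 15 or 18 (q = 0.0683 to 0.108). TNFSF11, which encodes RANKL, and its decoy receptor TNFRSF11B had changes of 0.27 and -0.26 and were not called.

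Of 19 genes of the lysosome and its proton pump 9 were called higher and 1 lower, with a median of 0.39. ATP6V1C1, a subunit of the pump, went from a median of 7.03 to one of 7.42 with no overlap. It rose by 0.71 (SE 0.17, q = 0.0125) on 1 of its 2 probe sets, with a change of 2.00 in pig 12. LIPA, the acid lipase, rose by 0.54 (q = 0.0143) in 7 of 7 pigs with no overlap. The protease cathepsin B (CTSB) rose by 0.69 (q = 0.0185) and was not called without pig 3 or 9 (q = 0.0524 to 0.074). The gene called lower was ATP6V1E1, another subunit of the pump, at -0.53. Without pig 3 or 9 the list had 2 genes called higher, and with pigs 11 and 12 left out it had 1. With only the H arrays 0 were called in either direction, and after repeated quantile normalization 3 higher and 1 lower.

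Of 22 genes of BMP, TGF-β, SMAD and RUNX signaling 5 were called higher and 0 lower, and the mean change of the list was positive in 7 of 7 pigs (0.10 to 0.40). SMAD5, which carries BMP signals to the nucleus, lay at 7.06, 7.47 and 7.93 at 28 dpn and at 7.81, 8.13 and 8.47 at 63 dpn, and rose by 0.67 (SE 0.16, q = 0.0135). TGFBR1, a receptor of TGF-β, rose by 0.41 (q = 0.0213) on 3 of 3 probe sets, and RUNX2, a transcription factor of osteoblasts, by 0.44 (q = 0.0239) in 6 of 7 pigs. TGFBR1 was not called without pig 9 (q = 0.0603) and RUNX2 not without pig 3, 9 or 12 (q = 0.0519 to 0.0693), and the list had 1 called gene without pig 9 or with only the H arrays and 0 without pigs 11 and 12.

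Phosphate and vitamin D genes moved little as a group. Of 16 tested 3 were called higher and 1 lower, and the median was -0.09. GALNT3, which glycosylates FGF23 and so protects it from cleavage, lay at 4.12, 4.68 and 5.05 at 28 dpn and at 5.11, 5.34 and 5.44 at 63 dpn. It was higher in 7 of 7 pigs with no overlap and rose by 0.71 (SE 0.16, q = 0.0116). In L and M pigs GALNT3 changed by 0.41 (higher in 6 of 6 pigs) and 0.57 (4 of 5 pigs). FGF23, the phosphaturic hormone that is made chiefly in bone, lay at 6.92, 7.24 and 7.43 at 28 dpn and at 6.50, 6.71 and 7.07 at 63 dpn. It was lower in 7 of 7 pigs by -0.41 (SE 0.13, q = 0.0366) on 1 of its 2 probe sets. SLC20A2, a sodium-dependent phosphate transporter, rose by 0.50 (q = 0.0478) and RXRA, the partner of the vitamin D receptor, by 0.44 (q = 0.0289). The calls of these 3 genes were lost without pig 3, 9, 11 or 12 and some of them also without pig 15 or 18 (q = 0.0502 to 0.179). VDR, the vitamin D receptor, CASR, the calcium sensor, and the phosphate exporter XPR1 had changes of 0.12, -0.15 and -0.13 and were not called.

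In Wnt signaling single genes moved in both directions, with 3 of 23 called higher and 2 lower and a median of 0.02 that turned negative under repeated quantile normalization and without pig 3, 6 or 9. PYGO1, a coactivator of β-catenin, lay at 4.46, 4.96 and 5.11 at 28 dpn and at 5.35, 5.75 and 6.45 at 63 dpn. It rose by 0.90 (SE 0.14, q = 0.00391), had the lowest P among the named genes, and the ages did not overlap. In L and M pigs PYGO1 changed by 0.87 and 0.54. GSK3B, the kinase that marks β-catenin for degradation, went from a median of 7.61 to one of 8.12 with no overlap. It rose by 0.56 (q = 0.0108), on 1 of its 2 probe sets. WNT1, a ligand, lay at 6.93, 7.15 and 7.24 at 28 dpn and at 6.05, 6.65 and 6.84 at 63 dpn, wholly below, with a change of -0.59 (SE 0.14, q = 0.0147). HGF, the hepatocyte growth factor, rose by 1.03 (SE 0.20, q = 0.00769) in 6 of 7 pigs and by 0.69 without pigs 11 and 12.

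Erythroid genes went the other way, although red cells are largely removed from PBMC. Of 8 genes tested 3 were called lower (BPGM, EPB42 and RHAG), 0 higher, and the median was -0.47. BPGM, which makes the 2,3-bisphosphoglycerate that lowers the oxygen affinity of haemoglobin, lay at 10.91, 11.65 and 12.05 at 28 dpn and at 9.83, 10.80 and 11.47 at 63 dpn. It was lower in 7 of 7 pigs, with a change of -0.93 (SE 0.18, q = 0.00783). EPB42, a protein of the red cell membrane skeleton, had a change of -0.91 (q = 0.0156) and RHAG, the Rh-associated glycoprotein, one of -0.79 (q = 0.0188), each in 6 of 7 pigs. Both were not called without pig 9 (q = 0.051 and 0.0677). RHCE, of the Rh blood group, and ADD2, the β-adducin of the membrane skeleton, were among the 15 largest decreases, at -1.01 (q = 0.0166) and -1.08 (q = 0.0124), and RHCE was not called without pig 9 (q = 0.056). The change of the list lay between -1.42 in pig 12 and 0.27 in pig 18, and its median was -0.32 without pigs 11 and 12. It had 1 called gene without pig 9, without pigs 11 and 12 and with only the H arrays. The haemoglobin gene HBM and the haemoglobin chaperone AHSP changed by -0.16 and 0.09 and were not called.

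Other cell types had fewer genes called. Of 12 B cell genes 4 were called higher (VPREB3, BANK1, MS4A1 and PAX5), with a median of 0.36. VPREB3, a chaperone of the B cell receptor chains, lay at 5.93, 6.72 and 6.93 at 28 dpn and at 7.04, 7.25 and 7.78 at 63 dpn, wholly above, and rose by 0.72 (SE 0.17, q = 0.0137). VPREB3 was not called without pig 9 (q = 0.0514), when the list had 0 called genes, and with only the H arrays or after repeated quantile normalization it had 1. Of 15 genes of cytotoxic T and NK cells KLRK1 and TBX21 were called higher, the median was 0.49 and all 15 changes were positive, but the mean of the list changed by -0.77 in pig 18. TBX21, the transcription factor T-bet, had a change of 0.86 (q = 0.0333) and was not called without pig 3, 6, 9, 12 or 15 (q = 0.0556 to 0.119). Of 16 T cell genes 0 were called, with a median of 0.12. MHC class II genes had 0 of 12 called although all 12 changes were positive (0.25 to 0.45, median 0.36).

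Neutrophil and calgranulin genes had a median of 0.42, but the list changed by 2.17 in pig 12, by 0.68 in pig 11 and by -0.71 to 0.34 in the others. Without these pigs the median was 0.01, and of 12 genes only ARG1, the arginase, was called, lower with -0.53 (q = 0.0398), and not without pig 3, 6, 9, 11 or 12. S100A8 and S100A12, calgranulins of neutrophils and monocytes, had changes of 0.92 (q = 0.0786) and 0.83 (q = 0.0829) and were not called. The pig with the largest neutrophil change was thus the one with the largest change of the monocyte and interleukin-1 lists, and the part of neutrophil RNA in those lists was not tested. Platelet genes had 0 of 10 called, and pig 18 stood apart with a mean change of -2.75, beside -0.49 to 0.47 in the others. Its PPBP, a platelet chemokine, changed by -6.51.

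**Figure D4:**
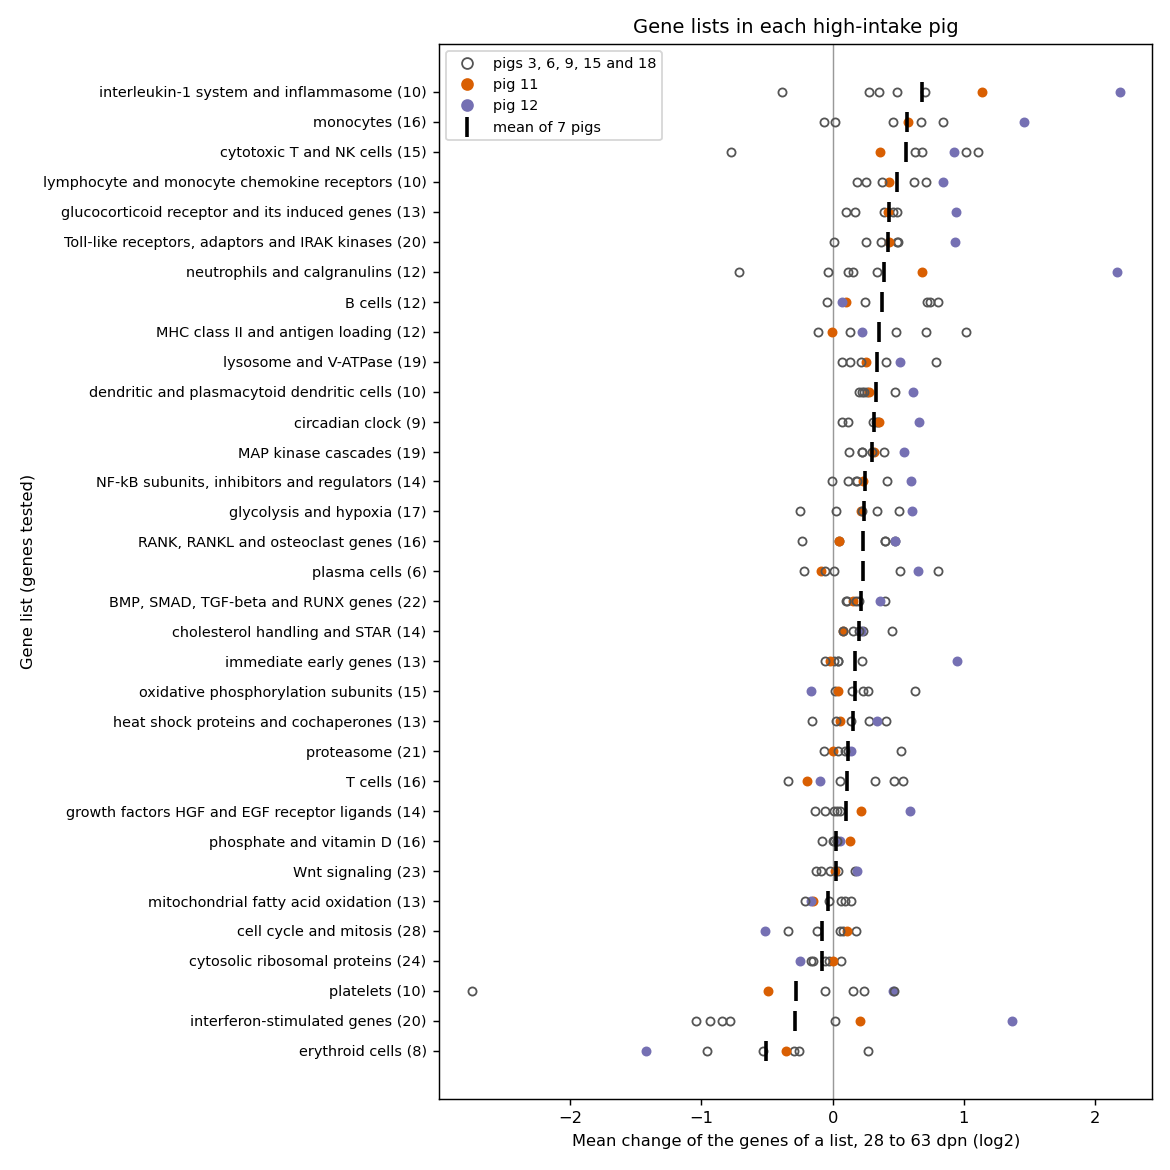
Mean change of the genes of each of the 33 lists from 28 to 63 dpn (x axis, log2), 1 point for each H pig and a bar for the mean of 7. The monocyte list lies between -0.07 and 1.46 and the erythroid list between -1.42 and 0.27, and pig 18 stands apart for platelets at -2.75.

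Probe sets designed for microRNAs, short RNAs that repress mRNAs, were lower more often than higher. Of 1314 such probe sets 94 (7.15%) were called lower and 10 higher (0.761%), beside 3.31% and 7.14% of all probe sets, with a median change of -0.16. The direction was the same with every array centred on its median (66 lower, 10 higher), after repeated quantile normalization (67 and 7) and without pigs 11 and 12 (32 and 0). The counts were smallest without pig 9 (20 lower, 2 higher) and with only the H arrays (25 and 0), and they were 48 and 4 without pig 3 and 42 and 4 without pig 11. Most were designed for human, mouse or cattle microRNAs, and of the 42 porcine ones 2 were called, ssc-mir-320_x_st at -0.59 (q = 0.0116) and ssc-mir-1308_st at -0.75 (q = 0.0417). The probe set hsa-mir-125a_st (MIR125A) lay at 4.73, 5.06 and 6.19 at 28 dpn and at 2.70, 3.92 and 5.32 at 63 dpn. It was lower in 7 of 7 pigs, by -1.25 (SE 0.24, q = 0.00726), and was the only 1 of 3 probe sets of MIR125A called. The probe set mmu-mir-18b_x_st (Mir18b) went from a median of 4.02 to one of 3.04 with no overlap and changed by -1.03 (SE 0.21, q = 0.00876). Both had low levels, with means over all arrays of 4.58 and 3.58, beside a median of 6.72 for the microRNA probe sets called lower. At 28 dpn hsa-mir-125a_st and mmu-mir-18b_x_st already lay 0.67 and 0.56 higher in the later H pigs than in the others. All other probe sets called lower also lay higher there, except bta-mir-181a-1_s_st at -0.12. The 28 dpn arrays of the H pigs enter both these differences and the changes. Among the 10 higher ones was hsa-mir-223_s_st, designed for a microRNA of myeloid cells, at 0.79 (q = 0.0288) in 5 of 7 pigs. A probe set annotated to MIR155 fell by 1.06 (q = 0.0213), and lost its call without pig 9 or 11 (q = 0.0637 to 0.0687). These probe sets were read from total RNA on an mRNA array, and whether they measured mature microRNA was not tested.

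The immunoglobulin heavy chain locus (LOC396781) is covered by 186 probe sets, of which 20 (10.8%) were called higher and 13 (6.99%) lower. The largest increase among them, 1.20 (q = 0.0135), went from a median of 8.51 to one of 9.42. The largest decrease, -1.08 (q = 0.0204), went from 4.17 to 3.28. The first was not called without pig 9 (q = 0.0576), the second not without pig 9 or 11 (q = 0.0588 to 0.0715). Over the locus 2 were called higher and 3 lower without pig 9, 6 and 8 without pig 3, 19 and 7 without pig 11, 13 and 7 without pig 15, 24 and 8 without pig 18, and 6 and 3 with only the H arrays. The median level over all arrays was 9.14 for those called higher and 3.99 for those called lower. The segments of this locus are near-identical, so that single probe sets of it are uncertain.

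The H pigs were then set beside the other diets. In L and M pigs the lists of monocytes, interleukin-1 and Toll-like receptors had medians of -0.19 and -0.04, of -0.07 and -0.15, and of -0.12 and -0.07. Their erythroid median was 0.13 and 0.23. Interferon-stimulated genes, which viruses and vaccines induce, had a median of -1.03 in L and -0.68 in M pigs, beside -0.20 in H pigs with 0 of 20 called. In the H group this list changed by 1.37 in pig 12 and by -1.04 to 0.21 in the others, and without pigs 11 and 12 its median was -0.61.

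The test of the difference itself called 1 probe set (0.00356%), SNOWBALL_003347_st, which has no gene symbol. It fell by 0.87 in H pigs and changed by 0.38 in L and 0.17 in M pigs, a difference of -1.15 (SE 0.18, q = 0.0335). An unadjusted P under 0.05 was reached by 5738 of the 28086 probe sets tested. With no difference at all, a share of about 0.05 of them would reach it, which also applies to the unadjusted counts below. Against L alone and M alone limma called 0 each (4880 and 3559 at an unadjusted P under 0.05). VCL, TANK and CD163 were the named genes nearest to the threshold, each with q = 0.0551, and their differences were 1.65, 1.05 and 1.36. In 7 of 7 H pigs TANK and MAPKAPK3 were higher at 63 dpn and in 6 of 6 L pigs lower. They were found by a search of all 187 named probe sets, many of them chosen for a low P or a shared sign in H pigs. How many such cases chance would give was not tested. The same fit called 1 probe set for the change with age in L and 0 in M pigs (1599 and 1443 at an unadjusted P under 0.05). The count of the difference was 0 without pig 3, 9, 12, 15 or 18, 2 without pig 11 and 1018 without pig 6.

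**Figure D5:**
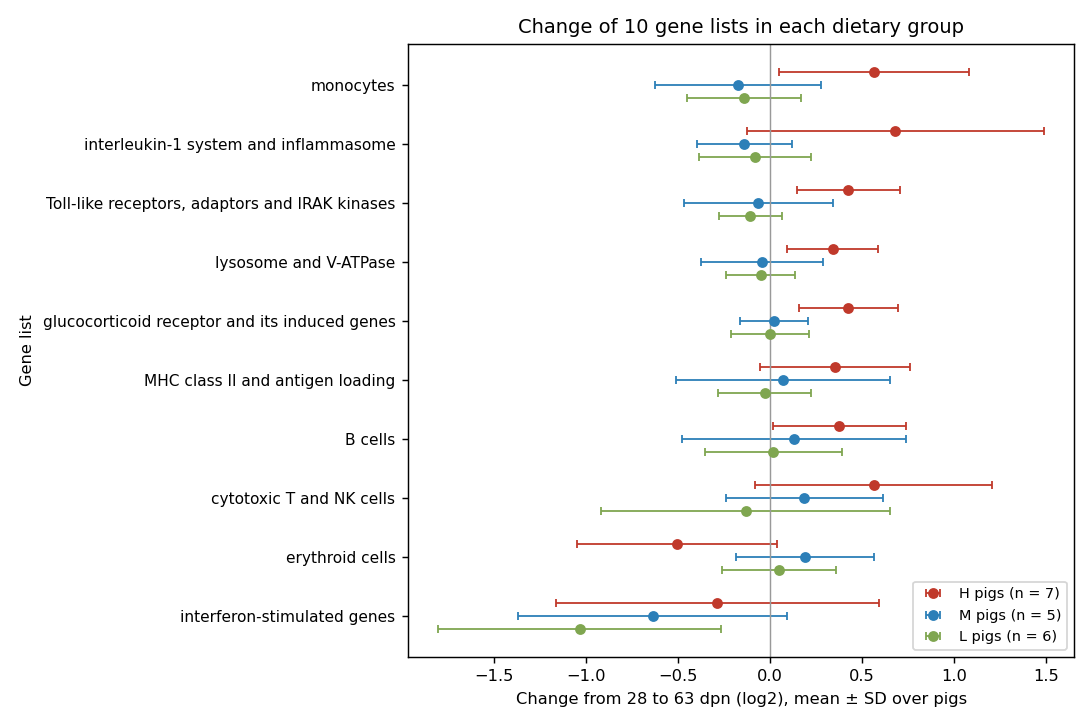
Change of 10 gene lists from 28 to 63 dpn (x axis, log2) as mean and SD over the pigs of each dietary group. The monocyte list stands at 0.56 in H pigs and below 0 in L and M pigs, the erythroid list at -0.51 in H pigs and above 0 in the others (0.05 and 0.19).

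For some lists the group means already lay apart at 28 dpn, before the diets began. At that age the mean of the monocyte list was 8.04 in the later H pigs and 8.25 in the later L and M pigs, and at 63 dpn it was 8.61 and 8.17. For the erythroid list the values were 11.85 and 11.57 at 28 dpn and 11.34 and 11.69 at 63 dpn. For the interleukin-1 list they lay closer together at 28 dpn, at 6.29 and 6.35, and were 6.97 and 6.29 at 63 dpn. The gap at 28 dpn was widest for the B cell list among all lists with called genes, at 8.48 in H and 8.80 in the others, and at 63 dpn the levels were 8.86 and 8.88. The 28 dpn arrays of the H pigs enter both the difference at 28 dpn and the change with age, so these are the same measurements seen from both sides. Between the later H pigs and the mean of the others at 28 dpn limma called 0 probe sets, and 30 without pig 12. With all pigs, 3672 of the 28086 tested had an unadjusted P under 0.05. FCGR2B, with a change of 1.73, had a difference of -0.97 between the later H pigs and the others at 28 dpn, and SYK, with a change of 0.73, had a difference of -0.49. IL1R2, HGF and TPPP3 had differences at 28 dpn of -0.02, -0.18 and -0.04, and changes of 1.32, 1.03 and 1.16.

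TPPP3, a tubulin-binding protein, was higher in 7 of 7 H pigs, by 0.62 to 1.61. It lay at 6.17, 6.63 and 6.82 at 28 dpn and at 7.31, 7.73 and 7.91 at 63 dpn. The ages did not overlap, the rise was 1.16 (SE 0.19, q = 0.00433), and the L and M pigs changed by 0.81 and 0.76. CALCRL also rose in L and M pigs (0.63 and 0.60), as did SGK1 (0.49 and 0.47). The largest LOC396781 increase was seen there too (0.96 and 0.85), and BPGM was lower (-0.42 and -0.23). Other named genes went the other way in both, such as VCL (-0.76 and -0.21) and TANK (-0.22 and -0.19). CPT1A, the gate of fatty acid entry into mitochondria, was lower in all diets, with -0.57 in H (q = 0.0345, 6 of 7 pigs), -1.23 in L and -1.30 in M pigs. Its H call was lost without pig 3, 6, 9, 11, 15 or 18 (q = 0.0567 to 0.104).

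Of the 187 named probe sets 114 were called, 89 higher and 25 lower. With each pig left out in turn 47 of the 114 kept their call throughout, 42 were called with only the H arrays and 46 without pigs 11 and 12. The call of 30 of them held in up to 18 other fits, namely the alternatives to the fit of all arrays, the fit of the H arrays and the fits without 1 pig or without pigs 11 and 12. With only the H arrays and also 1 pig left out, 0 probe sets at all were called without pig 3, 9, 11 or 15. Among the 30 were PYGO1, TPPP3, SGK1, MAP3K2, IL1R1, FKBP5, TANK, HGF, BPGM, STAR, FGL2, VCAN, SYK and GALNT3. Of the 114 called, 0 changed direction while called under any setting tried. Many had been chosen for a shared sign across pigs or for a low P, which made a reversal unlikely. Among those not called, the sign changed with 1 pig left out for PPBP (-0.67, at most 0.30). It also changed for PRDM1 (0.35, at least -0.02) and TNFRSF17 (0.13, at least -0.04).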

How the data were processed

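PBMC RNA was measured on Affymetrix porcine arrays, and the authors deposited log2 values made by the robust multiarray average (RMA: background correction, quantile normalization and summary into probe sets) for 47845 probe sets on 37 arrays. The submitters' processing notes name GCOS 1.1.1. These values were used as deposited.

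Groups and pig numbers came from the sample labels. After removal of 123 control probe sets, those with SD above 0.23 and mean above 2.5 were tested, 28086 in all (58.7%), of which 15356 had a gene symbol. R 4.3.3 and limma 3.58.1 (lmFit and eBayes) fitted all 37 arrays with the pig as a block and a change with age for each diet. Storey's method gave q values from P, and calls needed both to be at most 0.05. The 28 dpn comparison had no block and sex as a term.

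The same number means the same animal at both ages. The deviations of the 7 H pairs correlated between -0.162 and 0.160, and 4 of 7 exceeded 0.1.

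Named genes were the 15 largest called increases and decreases that had 1 sign in at least 6 of 7 pigs, plus, per list, the 5 or fewer genes of lowest P. Other genes were chosen after their values were seen. Each list gene was represented by its tested probe set of highest mean. The members and lists were chosen with earlier results of these data known. The main fit was tested on simulated data with independent noise and no difference between pigs, unlike the arrays. It found 82% of the changes of size 1 put in and 16% of the smaller ones, with 1 false call. Alternatives were other blocks, filters, adjustments, weights, scalings and samples. Litter and sire were not analysed here, and precision is limited by how many arrays there were.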

Additional observations from a re-analysis of the deposited data

Results flagged for a closer look

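Of 221 sets of 7 single-pig changes checked (187 named probe sets, 33 lists and the first principal component), 23 had 1 pig far from the other 6, where chance gives about 1 in 20. Pig 12 was that pig in 11 of them and pig 18 in 8. In pig 12 the change was 3.81 for IL1R2, 3.31 for EREG, 1.96 for DUSP1, 2.00 for ATP6V1C1, 1.37 for JUN, 1.05 for EGR2 and 2.60 for PRDM1. It was -3.46 for HADH, -0.25 for SOS1, 6.03 for the second probe set of TGM3 and 0.95 for the list of immediate early genes. In pig 18 the platelet genes PPBP, TUBB1, ITGA2B and GP6 changed by -6.51, -3.70, -3.04 and -2.24, and their list by -2.75. The same pig had -0.41 for KLRK1, -0.25 for FASLG and -0.77 for the list of cytotoxic T and NK cells. Pig 9 was highest for the proteasome list at 0.52 and for the list of cholesterol handling at 0.45. Pig 15 had -2.26 for Mir18b, and pig 6 had -0.10 for TBK1.

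The probe set SNOWBALL_003347_st differed in its change between H and the other diets by -1.15. All H pigs moved one way and all L pigs the other for TANK (0.85 in H, -0.22 in L) and MAPKAPK3 (0.59 and -0.21), and all M pigs the other for RXRB (0.38 in H, -0.22 in M). The limma q of the difference between H and the mean of L and M was 0.0551 for TANK, 0.0553 for MAPKAPK3 and 0.0584 for RXRB, so that none of them was called. These 3 came from a search of the 187 named probe sets and 33 lists, many members of which were chosen for their change in H pigs. The number that chance would give was not tested.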

How the results depend on the processing

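The 2935 probe sets called between the ages became 3512 with no replicate block, 462 with only the H arrays, 1129 by Benjamini-Hochberg, 927 under a stricter filter, 1534 after repeated quantile normalization and 964 without pigs 11 and 12. With 1 pig left out they ranged from 585 (pig 9) to 2564 (pig 6). With only the H arrays and 1 pig left out they were 0 without pig 3, 9, 11 or 15, 143 without pig 6, 396 without pig 12 and 502 without pig 18, and 3 without pigs 11 and 12 (fits chosen after seeing the data). The 1 probe set called for the difference between diets became 0 with no replicate block, by Benjamini-Hochberg, under the stricter filter and without pigs 11 and 12, 273 with unmoderated variances, 2306 with array weights, and 0 to 1018 with 1 pig left out. The 0 called at 28 dpn ranged from 0 to 30 with 1 pig left out. The cause of these shifts was not tested. List medians that changed sign were those of platelets (without pig 18), heat shock, ribosomal proteins and growth factors (stricter filter), immediate early genes (without pigs 11 and 12), fatty acid oxidation and Wnt signaling. The other counts over all probe sets stayed within 1.5 times, whereas counts of the lists, microRNA probe sets and the immunoglobulin locus moved further, as given with them. The 7 pairs of arrays limit what could be detected.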

Other observations

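Genes of basic cell metabolism moved less than those of monocytes. Of 17 genes of glycolysis and hypoxia 5 were called higher (HK1, GPI, HIF1A, PGK1 and SLC2A3, 0.49 to 0.62) with a median of 0.25, and 0 were called without pig 9, with only the H arrays or after repeated quantile normalization. Of 15 subunits of oxidative phosphorylation 3 were called higher (NDUFB6, SDHD and COX6C), with a median of 0.22, and of 21 proteasome genes 2 (PSMC2 and PSMA7), with a median of 0.24. The former had 1 called gene without pig 9 or with only the H arrays, and the proteasome 0 without pig 9 or 15, with only the H arrays or after repeated quantile normalization. Of 14 genes of cholesterol handling 3 were called higher (SREBF2, SOAT1 and NPC1), with a median of 0.23, and 0 without pig 9.

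Genes of growth stood near 0. Of 28 cell cycle genes CDC6, which licenses replication origins, was called higher at 0.45 and E2F1, a transcription factor of S phase entry, lower at -0.59, with a median of -0.09. Of 24 cytosolic ribosomal proteins RPS25 alone was called, lower, and the median was -0.09. Of 13 heat shock genes 0 were called, with a median of 0.17. CDC6 lost its call without pig 9 (q = 0.0574) and E2F1 without pig 3, 9 or 15 (q = 0.0543 to 0.056).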
